A study of Rattus norvegicus with 3 samples.

Results

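The CaM kinase and calmodulin genes carry the main relay by which a rise of calcium in a neuron becomes protein phosphorylation. The 9 genes described here are the calmodulin genes Calm2 and Calm3, the CaMKII subunit genes Camk2a, Camk2b, Camk2d and Camk2g, the CaMKIV gene Camk4 and the CaM kinase kinase genes Camkk1 and Camkk2. They were taken from the count rows whose NCBI gene identifier belongs to these rat symbols, and all 9 were found among 18560 genes. Hippocampal RNA was sequenced in 3 samples of healthy wild-type rats given Q808 by gavage for 28 days. Q808 is a code-named compound studied against seizures. The samples form 1 group, and untreated rats were not analysed here. The file of replicate 2 listed all 18560 genes, with 15417009 counts in sum. Those of replicates 1 and 3 broke off after the first 12 and 307 genes of the same alphabetical order, before the first of the 9 genes. All values for the 9 genes therefore come from 1 library, without a replicate check, and none of them measures an effect of Q808. The count columns carry the prefix Con_Q, whose meaning no source used here gives, and the group was taken from the sample labels.

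Calmodulin is a small protein that binds calcium and then switches on the enzymes that hold its binding site. CaMKII, a large ring of mixed subunits, is abundant at the postsynaptic side of excitatory synapses, where its self-phosphorylation outlasts the calcium signal and is needed for long-term potentiation. CaM kinase kinases phosphorylate and activate CaMKI and CaMKIV, and CaMKIV acts largely in the nucleus on transcription factors such as CREB.

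The regions before 1 annotated transcript start of 3 of these genes are shown because they differ widely in base composition. Camk2a and Camk2b are the CaMKII genes with most counts. Each line is the 250 bases before 1 transcript start, 5′ to 3′ on the gene's strand, from RefSeq on GRCr8, at chr18:56648930-56649179 (plus strand) for Camk2a, chr14:85147945-85148194 (minus strand) for Camk2b and chr18:24856902-24857151 (plus strand) for Camk4. Capitals mark the short CRE site TGACG, which is part of the full CRE TGACGTCA, and the GC box GGGCGG, on either strand.
Camk2a: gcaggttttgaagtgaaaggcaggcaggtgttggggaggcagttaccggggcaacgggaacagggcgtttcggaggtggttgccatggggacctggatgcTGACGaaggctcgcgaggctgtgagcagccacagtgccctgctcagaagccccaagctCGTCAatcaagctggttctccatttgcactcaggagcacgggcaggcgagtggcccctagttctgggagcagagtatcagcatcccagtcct
Camk2b: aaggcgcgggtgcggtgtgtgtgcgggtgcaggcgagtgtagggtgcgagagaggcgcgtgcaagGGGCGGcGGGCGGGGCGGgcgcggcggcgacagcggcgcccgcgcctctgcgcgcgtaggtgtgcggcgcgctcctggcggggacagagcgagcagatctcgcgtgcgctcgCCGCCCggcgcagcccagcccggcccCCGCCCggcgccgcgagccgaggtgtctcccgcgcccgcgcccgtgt
Camk4: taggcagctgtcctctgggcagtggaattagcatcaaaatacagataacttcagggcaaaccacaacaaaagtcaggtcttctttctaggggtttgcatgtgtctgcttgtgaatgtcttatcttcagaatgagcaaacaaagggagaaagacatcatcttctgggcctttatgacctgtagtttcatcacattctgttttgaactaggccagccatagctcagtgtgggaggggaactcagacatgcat
The Camk2a window held 2 matches to TGACG and none to GGGCGG. The Camk2b window held 5 matches to GGGCGG, of which a pair overlap, and none to TGACG. The Camk4 window held neither. Of the windows not printed, that of Camk2g held 7 matches to GGGCGG, and those of Camk2d and Camkk1 held 3 each. Camkk1 also had 1 match to TGACG, and Camk2d and Camk2g had none. Over 33465 RefSeq windows of the same length, 18.2% had TGACG and 30.5% had GGGCGG on either strand. The full CRE TGACGTCA, found in 1.59% of all windows, was in none of the 6 windows available for the 9 genes, and neither was TATAAA, found in 12.9% of all windows. CCAAT, found in 34.0% of all windows, had 2 matches in the window of Camkk1 and none in the other 5.

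In base composition the Camk4 window had 44.4% G and C and no CpG dinucleotide, and the Camk2a window had 60.4% and 10 CpG. The windows of Camk2b (80.4%, 47 CpG), Camk2d (75.2%, 28 CpG), Camk2g (80.8%, 30 CpG) and Camkk1 (77.6%, 36 CpG) were richer. The median window had 51.2% G and C and 5 CpG, so the windows of Camk2b, Camk2d, Camk2g and Camkk1 each lay above at least 93.2% of all windows in CpG number. These are single annotated starts. The start used for Camk2a lies 401 bases inside the gene's outermost annotated boundary and that of Camk2b 177 bases inside. That of Camk4 lies at the outermost boundary of a gene with 5 listed transcripts. Other annotated starts of the same genes are not shown, and use of any start in these samples was not measured.

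Levels below are counts scaled to 1000000 counts of the library (CPM) with the exact 95% Clopper-Pearson interval of the share, which covers counting error only. CPM is a read yield that is not corrected for transcript length, and lengths of the counted transcripts were not available. Values of different genes are therefore set side by side as yields of reads and not as amounts of mRNA.

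All 9 genes passed 10 counts, the minimum used for detection, which 14295 genes (77.02%) of the table passed. Together they took 77350 counts, or 0.502% of the library. Their median was 472 CPM, where the median of all detected genes was 25.2 CPM, and 8 of the 9 lay above that median. Of the 9 genes, 6 had at least 100 CPM, as had 17.0% of detected genes. These genes were chosen as known neuronal genes with results of this library in view, so their median carries no test. Counts differed by 178-fold between Camk2b and Camk2g at the extremes, and by 99.7-fold when a second row with the product name of Camk2g was added.

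**Figure D1:**
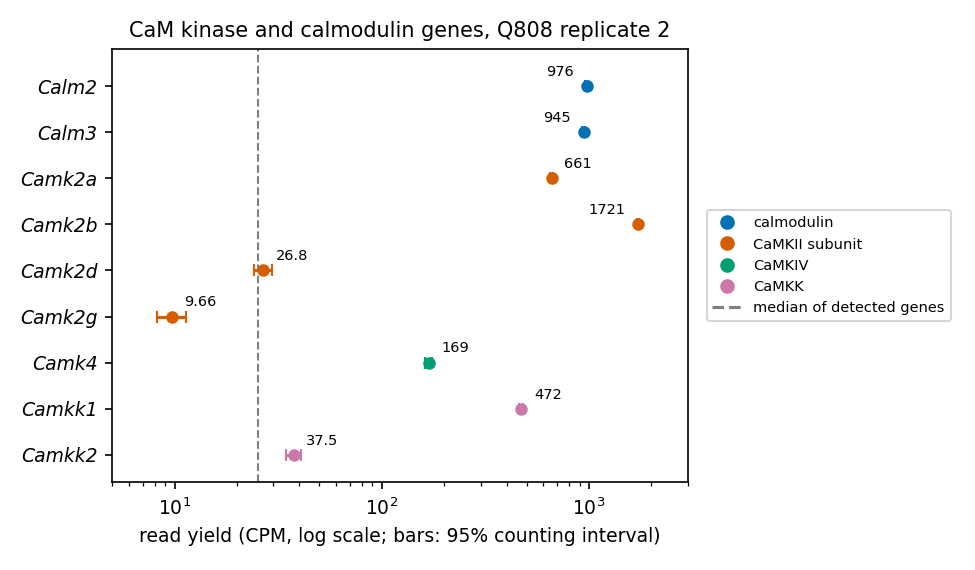
Read yield of the 9 genes in Q808 replicate 2, in CPM on a log axis, with bars for the 95% counting interval (narrower than the point for most genes) and a dashed line at the median of detected genes. Camk2b had the largest yield at 1721 CPM, and Camk2g, at 9.66 CPM, was the only one of the 9 below the median of 25.2 CPM.

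Calmodulin was read at high yield from both member genes. Calm2 had 15053 counts, or 976 CPM (961 to 992). Calm3 had 14570 counts, or 945 CPM (930 to 961). They had more counts than 99.4% and 99.3% of detected genes, and both encode the same calmodulin protein from separate mRNAs. The ratio of their counts, Calm2 over Calm3, was 1.03 (1.01 to 1.06). Of the 29623 counts of the pair, 50.8% (50.2 to 51.4) belonged to Calm2 and 49.2% (48.6 to 49.8) to Calm3. The RefSeq gene table lists 3 entries named as pseudogenes of Calm2 and 0 of Calm3, and none of the 3 has a row of counts. Reads shared with such copies could have been assigned elsewhere or dropped, so the division between Calm2 and Calm3 is uncertain.

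The CaMKII subunit genes divided into a pair with high and a pair with low read yield. Camk2b, which encodes the beta subunit that also binds actin filaments, had 26526 counts, or 1721 CPM (1700 to 1741). By counts it ranked 28 among the 18560 genes. Camk2a, which encodes the alpha subunit and is widely used as a marker of forebrain excitatory neurons, had 10188 counts, or 661 CPM (648 to 674), more than 98.9% of detected genes. Camk2d, the delta subunit gene known best from heart muscle, had 413 counts, or 26.8 CPM (24.3 to 29.5), and stood close to the median of detected genes with more counts than 51.4% of them. Camk2g, the gamma subunit gene, had 149 counts, or 9.66 CPM (8.18 to 11.3), more than 29.9% of detected genes.

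Of the 37276 counts of the 4 CaMKII genes, 71.2% (70.7 to 71.6) belonged to Camk2b and 27.3% (26.9 to 27.8) to Camk2a. Camk2d took 1.11% (1.00 to 1.22) and Camk2g 0.400% (0.338 to 0.469). Camk2b thus had 2.60 times the counts of Camk2a (2.54 to 2.66), and Camk2a had 24.7 times those of Camk2d (22.4 to 27.3). In rodent forebrain the alpha subunit protein is known to be more abundant than the beta subunit. These are ratios of reads without a correction for length, and the ratio of the mRNAs was not measured. The GRCr8 gene table lists 3 transcripts of Camk2a, 16 of Camk2b, 28 of Camk2d and 38 of Camk2g, and the counts do not separate transcripts. The count rows of Camk2d and Camk2g name versions 3 and 2 of their transcripts, where the GRCr8 table lists versions 5 and 4. Which of the listed transcripts the older annotation held, and so which of them the counts cover, is not known.

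The product name of Camk2g occurs on more than 1 row. A second row with the same product name and another gene identifier held 117 counts, or 7.59 CPM (6.28 to 9.10), and a further row, named as a gamma-like subunit, held 0 counts, which allows up to 0.195 CPM. Neither identifier is in the GRCr8 gene table, so by the rule they are not Camk2g. With the 117 counts added, Camk2g would have 266 counts, or 17.3 CPM (15.2 to 19.5), more than 41.3% of detected genes. Its share of the CaMKII counts would be 0.711%. None of the other 8 genes had a second row under its exact product name. Rows under similar names, such as the gamma-like one, were looked for among CaMKII subunits only.

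**Figure D2:**
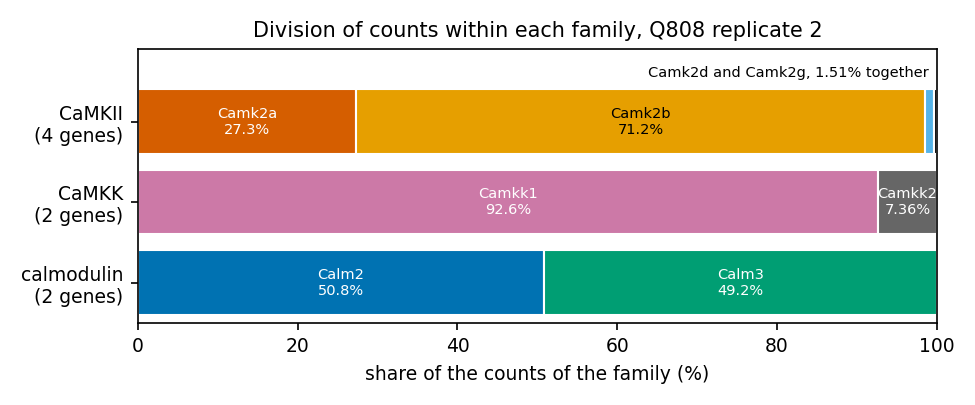
Share of each family's counts, in percent, taken by each gene in Q808 replicate 2. Camk2b took 71.2% and Camk2a 27.3% of CaMKII counts, Camkk1 took 92.6% of CaMKK counts, and Calm2 and Calm3 took 50.8% and 49.2% of their joint counts; shares are not corrected for transcript length.

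The upstream kinases were also read unevenly. Camkk1, which encodes CaM kinase kinase alpha, had 7270 counts, or 472 CPM (461 to 483), more than 98.0% of detected genes. Camkk2, whose product also activates the energy sensor AMPK, had 578 counts, or 37.5 CPM (34.5 to 40.7), more than 59.6% of detected genes. Camkk1 had 12.6 times the counts of Camkk2 (11.6 to 13.7). Camk4, encoding the nuclear kinase that CaM kinase kinases activate, had 2603 counts, or 169 CPM (162 to 175), more than 90.8% of detected genes. The counts of Camkk1 were 2.79 times those of Camk4 (2.67 to 2.92).

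The annotation columns of the count table show what the genes share. The Gene Ontology term for calmodulin-dependent protein kinase activity was attached to 21 genes, of which 20 were detected. The 7 kinase genes described here held 57.2% of its 83503 counts. Within this term Camk2b ranked 1, Camk2a 4, Camkk1 5, Camk4 7, Camkk2 15, Camk2d 18 and Camk2g 20 by counts. The genes of the term between Camk2b and Camk2a were Ptk2b (870 CPM), a calcium-sensitive tyrosine kinase gene, and Camkv (665 CPM). Of 162 genes annotated with calmodulin binding, these 7 held 9.22% of the counts. The term for the postsynaptic density was attached to Camk2a, Camk2b and Camk2g, which ranked 34, 3 and 241 of its 265 genes.

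By the KEGG annotation in the same table, 22 pathways held 5 or more of the 9 genes, tuberculosis and glioma among them. Long-term potentiation held 7 of the 9 genes, the CaM kinase kinase genes being the exceptions. These 7 genes held 22.1% of the counts of its 66 genes. The 63 detected genes had a median of 130 CPM, or 122 CPM without the 7. Camk2b had the most counts of the pathway, Calm2 ranked 6, Calm3 8, Camk2a 12, Camk4 29, Camk2d 50 and Camk2g 58. The same 7 genes held 17.2% of the counts of the calcium signaling pathway. Its 153 detected genes of 179 had a median of 23.9 CPM, or 20.8 CPM without the 7. The oxytocin signaling pathway, with 8 of the 9 genes, lacked only Camkk1, which KEGG placed in 1 pathway (alcoholism) in this table, against 29 for each CaMKII gene and 38 for each calmodulin gene.

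Other genes of calcium-calmodulin signalling were taken from a list arranged by role, of which 32 genes are reported. All 32 were detected, as were 77.02% of all genes. Their median was 108 CPM, and 16 had at least 100 CPM, as had 17.0% of detected genes. The list was made with earlier results of these data known, so these numbers carry no test. Among other CaM kinases and CaMKII inhibitors (7 genes, median 64.7 CPM), Camkv, a kinase-like gene whose product lacks kinase activity, had 665 CPM and Camk2n1, which encodes a CaMKII inhibitor, had 337 CPM. The related inhibitor gene Camk2n2 had 46.6 CPM. The CaMKI genes Camk1d, Camk1 and Camk1g had 90.1, 64.7 and 27.4 CPM. Eef2k, the elongation factor kinase gene, had 30.2 CPM.

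Genes for proteins that hold calmodulin at low calcium were read at high yield. Nrgn, the gene of neurogranin in dendrites, had 1932 CPM, while Gap43 and Pcp4 had 255 and 126 CPM. Calcineurin is the phosphatase that calcium and calmodulin activate, and 5 of its 6 listed genes lay above the median of detected genes. Its catalytic subunit genes Ppp3ca and Ppp3cb had 1539 and 512 CPM, its regulatory subunit gene Ppp3r1 had 1361 CPM, and Ppp3cc had 23.9 CPM. The calcineurin regulator genes Rcan2 and Rcan1 had 144 and 68.9 CPM.

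Among other enzymes that calmodulin activates, the adenylate cyclase gene Adcy1 had 1192 CPM and Adcy8 had 13.4 CPM. The phosphodiesterase genes Pde1b and Pde1a had 133 and 67.5 CPM, and the neuronal nitric oxide synthase gene Nos1 had 11.7 CPM. CaMKII partners and substrates included the vesicle protein gene Syn1 (821 CPM), the NMDA receptor subunit gene Grin2b (466 CPM), the AMPA receptor subunit gene Gria1 (311 CPM) and the scaffold gene Lrrc7 (28.5 CPM). Genes listed as targets of CaM kinase kinase and CaMKIV, or as coactivators of CREB, had a median of 55.2 CPM over 5 genes. Crtc1, a CREB coactivator gene, had 250.0 CPM, Crebbp had 66.0 CPM, Creb1 itself had 30.9 CPM, and the AMPK subunit genes Prkaa2 and Prkaa1 had 55.2 and 44.2 CPM. The phosphatase genes Ppm1e and Ppm1f, whose products dephosphorylate CaM kinases, had 168 and 84.0 CPM.

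**Figure D3:**
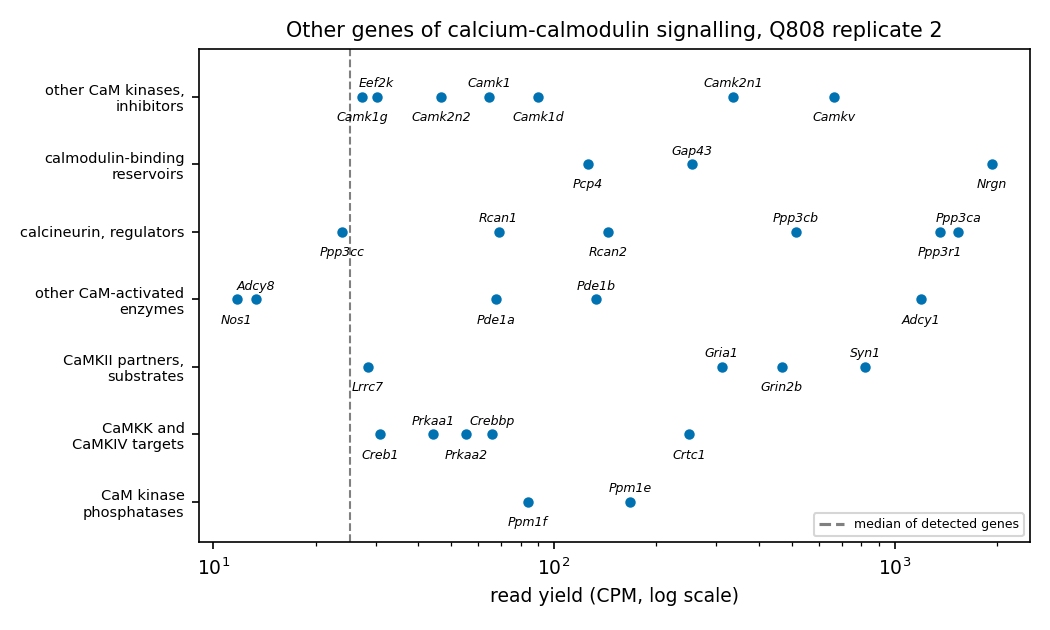
Read yield (CPM, log axis) of the 32 other genes of calcium-calmodulin signalling in Q808 replicate 2, 1 row per role and 1 point per gene, with a dashed line at the median of detected genes. Nrgn, Ppp3ca, Ppp3r1 and Adcy1 lie above 1000 CPM, and Ppp3cc, Adcy8 and Nos1 lie left of the line.

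Markers of the cell types a hippocampal piece can hold were also read, and all 20 were detected, as were 77.02% of all genes. The list held no marker chosen for another brain region, so it does not test the tissue label. The neuron genes Snap25, Syt1, Tubb3 and Rbfox3 had 2479, 1633, 480 and 137 CPM. Of the excitatory and field markers, Slc17a7 had 1796 CPM, Wfs1 190.2 CPM, Neurod6 178 CPM and the dentate gene Prox1 136 CPM. Glial markers ranged from 533 to 826 CPM for astrocytes, 108 to 5578 CPM for oligodendrocytes and 10.6 to 61.7 CPM for microglia, and endothelial markers ranged from 12.8 to 84.1 CPM. Read yields in a tissue piece cannot separate the number of cells of a type from the RNA per cell.

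How far a count can move between samples of this group was measured on the genes that the files of replicates 2 and 3 share. After scaling by the median ratio, 70 shared genes with at least 1000 counts in replicate 2 differed by a median of 1.08-fold, and 90% of them by no more than 1.18-fold. The largest difference among them was 1.64-fold (Acbd4). Calm2, Calm3, Camk2a, Camk2b, Camk4 and Camkk1 had counts in this range. For 117 shared genes with at least 100 and under 1000 counts, the range of Camk2d, Camk2g and Camkk2, the median was 1.13-fold and 90% differed by no more than 1.39-fold, with the largest at 8.33-fold (Ace). These are other genes, and the spread of the 9 genes themselves between samples was not measured.

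Of the 32 other pathway genes, 2 were held by the file of replicate 3 and none by that of replicate 1. Adcy8 was the last gene listed where the file of replicate 3 broke off. Adcy1, encoding a calmodulin-activated cyclase, had 18383 counts in replicate 2 and 21634 in replicate 3, which after scaling was 1.13-fold higher in replicate 3. Adcy8, encoding a cyclase of the same kind, had 206 and 258 counts in these replicates, 1.20-fold higher in replicate 3 after scaling. Both were smaller than the 1.18-fold and 1.39-fold limits given above for 90% of shared genes in their range of counts. Adcy1 and Adcy8 are among the genes from which these limits were computed, so this is a description and no test. Whether the samples come from separate animals is not stated in the labels.

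**Figure D4:**
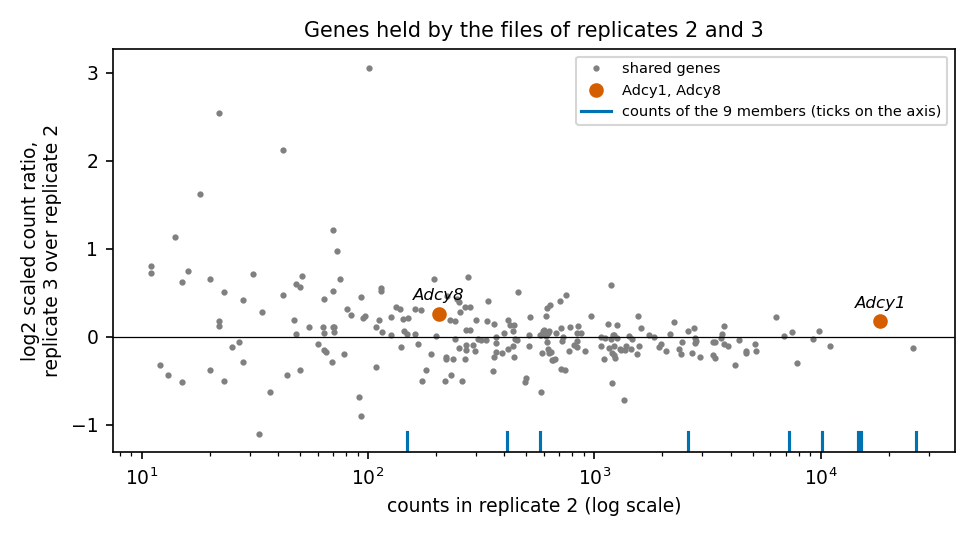
Each point is a gene with at least 10 counts in both replicate 2 and replicate 3, placed by its counts in replicate 2 (log axis) and its log2 scaled count ratio, replicate 3 over replicate 2, with ticks at the counts of the 9 genes. The ratios narrow as counts rise, with Adcy1 at 0.17 and Adcy8 at 0.26.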

How the data were processed

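Per the labels' protocols, bead-captured mRNA from TRIzol extracts of hippocampus was made into libraries with a Vazyme kit, then converted to the MGI format. Trimmomatic, HISAT2, HTSeq, StringTie and DESeq are among the tools in the submitters' processing notes. No source used here gives their roles, the genome build or the strand setting. The values the authors deposited are unnormalized whole-number counts for each gene, with 1 file per sample. No row lacked a gene.

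Members were matched by gene identifier to the RefSeq table of GRCr8, which named 17515 of 18560 genes. The members, gene lists and choices were made with earlier results of these data known. CPM was computed against the total of replicate 2 (15417009 counts), with exact Clopper-Pearson intervals from SciPy 1.17.1. Reads carried no molecular identifiers and can be copies of 1 molecule, so intervals and the floor of 3 counts for a count of 0 cover counting error only. A percentile is the share of genes with at least 10 counts that had fewer counts. Genes named are all members, the listed pathway genes and all listed markers, and some listed pathway genes are not reported here; Ptk2b, Acbd4 and Ace were named after their values were seen. Replicates 2 and 3 were scaled by the median ratio of the 243 genes that reached 10 counts in both. No test was made, since there is 1 group. The design had planned levels per kilobase of coding sequence, and no coding lengths were available. The intervals and the scaling were tried on simulated counts whose only random error was counting error. These trials do not cover spread between samples or reads copied from 1 molecule.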

Additional observations from a re-analysis of the deposited data

Results flagged for a closer look

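A second row of counts outside the 9 genes had the product name of Camk2g and another gene identifier. This second row held 117 counts in replicate 2, above the floor of 3 counts used for a count of 0. It equals 44.0% of the 266 counts of both rows together.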

How the results depend on the processing

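With the 10 genes with most counts left out of the total, the median of the 9 genes was 488 CPM, against 472 CPM, since the total is smaller, and the levels of 5 genes moved beyond their counting intervals while 4 did not. With genes matched to the gene table alone as the total it was 473 CPM, and none of the 9 levels moved beyond its interval. All 9 genes were detected at minimums of 1, 10 and 50 counts. The percentile of Camk2g was 46.0 against all genes of the table and 16.9 against genes with at least 50 counts, where it was 29.9 in the report. The addition of the second Camk2g row, an alternative chosen after seeing the data, moved the share of Camk2g in the CaMKII counts to 0.711% and left the shares of the other 3 genes within their intervals. The median fold between replicates 2 and 3 was 1.12 when scaled by sums and 1.14 with at least 1 count in each, against 1.13. Leaving out replicate 1 or replicate 3 changes no value of the 9 genes, and leaving out replicate 2 ends all of them. The spread between libraries ends without replicate 2 or replicate 3. Ratios and shares per kilobase of coding sequence were not run, because no coding lengths were available. No paired analysis was possible because the series has a single group. Depth limits Camk2g most, whose interval reached 16.4% of its value on average to either side, against 1.20% for Camk2b.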
